A study of Saccharomyces cerevisiae with 4 samples.

Results

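The genes of the mitochondrial protein import and folding machinery of Saccharomyces cerevisiae were followed by name through 4 comparisons of gene expression. They comprised 31 of the 6256 genes on the array: 8 genes of the translocase of the outer membrane, 5 small TIM chaperones of the intermembrane space, 3 genes of the TIM22 carrier translocase, 4 of the TIM23 presequence translocase, 6 of the import motor, 3 matrix folding chaperones and both subunits of the processing peptidase. The rule that picks them goes by name and uses no measured value. Of the 31, 30 passed the filter on dim spots and were tested, and 26 lay above background in all 16 channels of the 8 arrays.

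Nearly all mitochondrial proteins are made in the cytosol and enter through the TOM complex, from which small TIM chaperones guide membrane proteins across the intermembrane space. The TIM22 complex inserts carrier proteins into the inner membrane, and the TIM23 complex passes proteins with a presequence to the matrix, pulled in by a motor built around mitochondrial Hsp70. In the matrix the processing peptidase removes the presequence and the Hsp60 chaperonin helps the protein to fold. Yeast growing on glycerol must respire and is known to hold more mitochondrial protein than yeast growing on glucose, where respiration is repressed.

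The study compared a yeast mutant deficient in mevalonate kinase, the enzyme ERG12 encodes early in the route to sterols and other isoprenoids, with its parental strain. The 4 conditions were the DampERG12 mutant in glycerol, the same mutant in glucose, the parental BY4741 strain in glycerol and BY4741 in glucose, with 20 g/L of either carbon source in synthetic YNB medium. The mutant, which per the labels has 10% of parental enzyme activity, carries a hypomorphic allele and not a deletion, and the labels do not say how many clones were used. All cultures were first grown in glucose, and the labels disagree on what came next: 1 h in the new medium, growth from OD600 0.1 to OD600 0.5 (the highest the mutant reached in glycerol), or, for all groups, 1 h in rich medium at pH 2.5. The time in glycerol behind the values is therefore not settled.

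Each comparison was made on 2 arrays with RNA of biological duplicates, called here the first and the second array after their slide row, with the glycerol or mutant RNA in Cy5 on every array, so that a gene's own dye bias is part of each ratio. All 8 arrays lay on 1 slide with each comparison in its own column, so that the effect of a column cannot be told apart from that of a comparison. Per channel, 4917 to 5499 genes were well above background and no gene spot was saturated. The correlation of the 2 arrays of a comparison across 5343 tested genes, which are not independent replicates, was 0.898 for glycerol against glucose in the mutant, 0.953 in the parental strain, 0.511 for the strains in glycerol and 0.716 for the strains in glucose. As a check of the labels, ERG12 was above background in 1 of 8 mutant channels and 5 of 8 parental channels. URA3 was above background in 8 of 8 mutant and 3 of 8 parental channels, so the strains differed there as well. On the arrays with parental RNA alone, URA3 was above background in 0 of 4 channels. Among the members, the 2 spots of a gene on an array differed by a median of 0.07 on the log2 scale and the 2 arrays of a comparison by a median of 0.22.

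Each value below is a log2 ratio of Cy5 over Cy3 after loess scaling, which sets the average gene of an array to about 0. "Rose" and "fell" therefore mean relative to the average gene, at an adjusted p under 0.05 by limma with Benjamini-Hochberg adjustment over all tested genes. Each mean (n = 2 arrays) carries the moderated standard error of the fit. Its spread is pooled over all 8 arrays, so it is the same in all 4 comparisons of a gene. It is not the spread of the 2 arrays shown. Where arrays of 2 groups are said to overlap or not, this is a description without a test or a share over all genes. Centring on the spike-in RNA in place of the average gene moved the median of all genes to -1.35 for glycerol in the mutant, -2.20 for glycerol in the parental strain, -0.69 for the strains in glycerol and -1.58 for the strains in glucose, and put all 17 called rises of the members below 0. The spike-in probes' own mean log2 ratio was -0.14 on the second parental array, against 0.59 to 1.83 on the other arrays. The authors' deposited table has the parental glycerol response with the opposite sign to the scanner ratios (r = -0.964 across genes, against 0.92 to 0.966 in the other 3 columns). The directions below follow the dyes as labelled, and all 24 called values had the same sign in the authors' deposited table once that column was turned. That table combines the same arrays and the column was turned by its correlation, so this is no independent check of direction.

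In glycerol against glucose, most import and folding genes did not pass the threshold, 22 of 30 in the mutant and 17 of 30 in the parental strain, and with spike-in centring every tested member's value was below 0. In the mutant 5 of 30 tested members rose and 3 fell, where 24.7% of all tested genes rose and 21.9% fell. In the parental strain 12 members rose and 1 fell, where 31.4% of all tested genes rose and 30.5% fell. The median over the tested members was 0.03 in the mutant, against 0.02 over all genes, and 0.26 in the parental strain, against -0.01 over all genes. Changes were modest: no member reached a 2-fold change in the mutant, where 8.37% of all tested genes rose and 5.39% fell as far, while in the parental strain SSC1 rose and MAS2 fell at least 2-fold, against 12.8% of all genes that rose and 9.28% that fell as far. The rising members in common were PAM17, SSC1 and HSP60, and MAS2 fell in both, an overlap that was not set against all genes. With 2 arrays a comparison the parental count rests on each of them: 7 members rose without the first parental array and 6 without the second, and in the mutant 4 and 2 rose without its first and its second array. The parental count was 9 without either array of the strains in glucose, which add only to the estimate of the spread. With median centring of each array in place of loess, which put the median of all genes at -0.14 in the parental strain and made 37.8% of its calls rises against 50.7% with loess, only PAM17 and TOM70 rose there and 5 members fell (MAS2, TIM17, TIM22, TIM44 and TOM7).

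**Figure D1:**
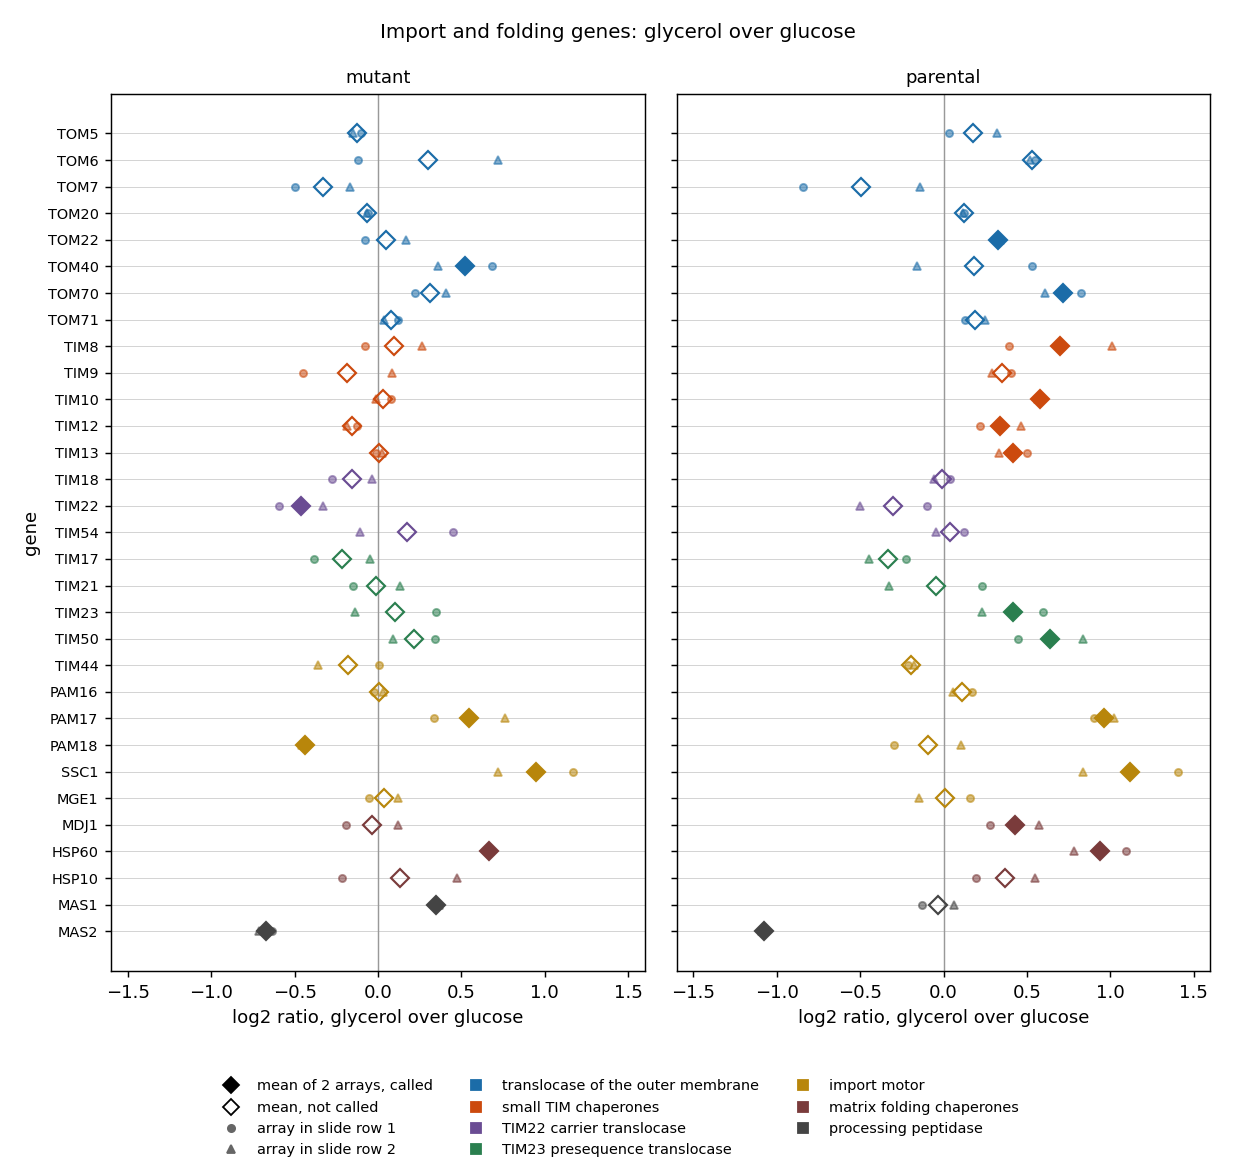
Log2 ratio of glycerol over glucose (x axis) for each of the 31 members (y axis, ordered by role) in the mutant (left panel) and the parental strain (right panel); small circles and triangles are the arrays in slide rows 1 and 2, diamonds their mean, filled where the gene passed the adjusted threshold, colours stand for roles, and PAM16 was not tested. SSC1, HSP60 and PAM17 lie to the right and MAS2 to the left of 0 in both panels, relative to the average gene, and the 5 small TIM genes lie above 0 in the parental strain and around 0 in the mutant.

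**Figure D2:**
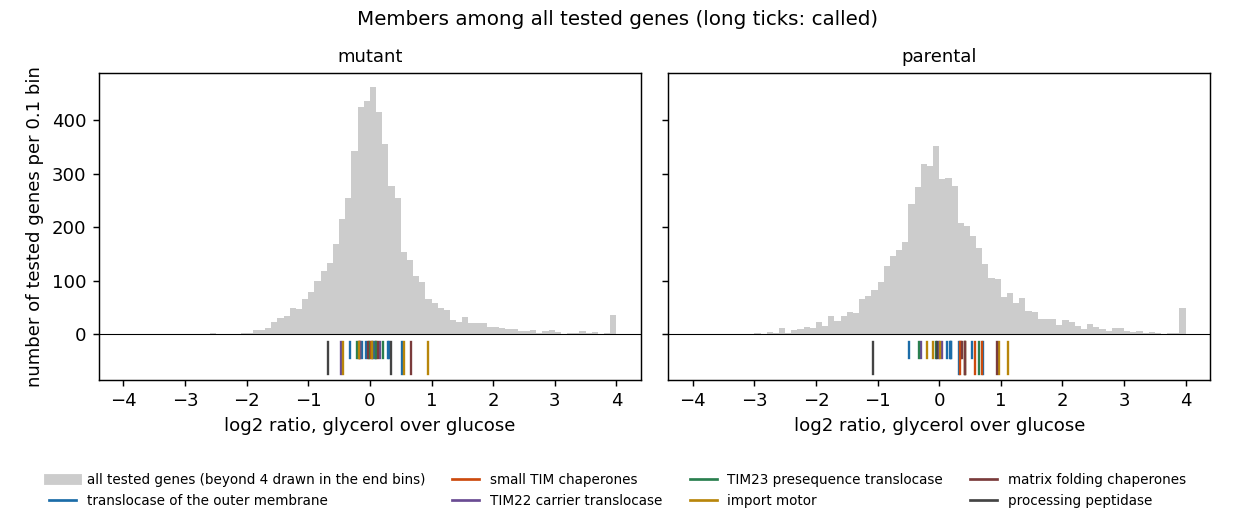
Distribution over all 5343 tested genes (grey) of the log2 ratio of glycerol over glucose in the mutant (left) and the parental strain (right), as genes per bin of 0.1 (y axis, values beyond 4 in the end bins), with the 30 tested members as ticks coloured by role, long where called. The members sit within the body of both distributions, with a median of 0.03 in the mutant and 0.26 in the parental strain.

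At the outer membrane, TOM40, the channel of the complex (YMR203W), rose in the mutant, with ratios of 0.68 and 0.36 on the 2 mutant arrays, against 0.53 and -0.16 on the parental arrays. The mean was 0.52 ± 0.17 in the mutant (adjusted p = 0.0339) and 0.18 ± 0.17 in the parental strain (adjusted p = 0.365). The glycerol channel of the second parental array had only 1 of 2 TOM40 spots above background. TOM70, the receptor for carriers and other proteins with internal signals (YNL121C), had 0.22 and 0.41 on the mutant arrays, against 0.82 and 0.61 on the parental arrays, and the strains' arrays did not overlap. TOM70 rose in the parental strain, by 0.72 ± 0.12 (adjusted p = 0.00123), and stood at 0.32 ± 0.12 in the mutant (adjusted p = 0.064). Its paralog TOM71 (YHR117W) was at 0.08 in the mutant and 0.19 in the parental strain, passing in neither. TOM22, the central receptor that joins the others to the channel (YNL131W), had -0.08 and 0.17 on the mutant arrays, against 0.31 and 0.34 on the parental arrays. It stood at 0.05 ± 0.11 in the mutant (adjusted p = 0.749) and rose in the parental strain, by 0.33 ± 0.11 (adjusted p = 0.0301). The presequence receptor TOM20 and the small subunits TOM5, TOM6 and TOM7, which shape the complex around the channel, passed in neither strain. Leaving out either parental array ended the call of TOM22 (0.34 and 0.31, adjusted p = 0.121 and 0.144), as did leaving out either array of the strains in glucose (adjusted p = 0.052). TOM40 was not called without either mutant array (0.36 and 0.68, adjusted p = 0.28 and 0.0615) or without either array of the strains in glucose (adjusted p = 0.0537).

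The small TIM chaperones had means above 0 throughout in the parental strain and around 0 in the mutant. In the mutant 0 of 5 rose or fell, with means between -0.18 and 0.09, and 0 of 5 had an unadjusted p under 0.05, which 54.4% of all tested genes had. In the parental strain 4 of 5 rose, where 31.4% of all tested genes rose, with means between 0.34 and 0.70 over the 5. TIM9 and TIM10 form the chaperone that carries most inner membrane proteins: TIM10 (YHR005C-A) had 0.08 and -0.01 on the mutant arrays, against 0.59 and 0.57 on the parental arrays. TIM9 (YEL020W-A) had -0.45 and 0.09 on the mutant arrays, against 0.41 and 0.29 on the parental arrays, and was the member of the group that missed the threshold in the parental strain (0.35 ± 0.15, adjusted p = 0.074). TIM8 and TIM13 form a second such chaperone, with a narrower set of clients. TIM8 (YJR135W-A) had -0.08 and 0.26 on the mutant arrays, against 0.39 and 1.01 on the parental arrays. TIM13 (YGR181W) had -0.01 and 0.02 on the mutant arrays, against 0.50 and 0.34 on the parental arrays. TIM12 (YBR091C), which docks the TIM9-TIM10 chaperone at the TIM22 complex, had -0.13 and -0.19 on the mutant arrays, against 0.22 and 0.46 on the parental arrays. For all 5 genes both mutant arrays lay below both parental arrays with loess scaling, an order that was not set against all genes. With spike-in centring the 5 mutant means lay above the parental means, by 0.55 to 0.64. After adjustment 0 of the 5 responses differed between the strains. Of the 5 parental values, 2 were below 0 with median centring (the lowest -0.02, with all 5 above the median of all genes), and all 5 were below 0 with spike-in centring. The parental means of the 4 that rose were 0.70 ± 0.15 for TIM8 (adjusted p = 0.00465), 0.58 ± 0.14 for TIM10 (adjusted p = 0.00654), 0.42 ± 0.11 for TIM13 (adjusted p = 0.00999) and 0.34 ± 0.11 for TIM12 (adjusted p = 0.023). Without the second parental array TIM8 (0.39, adjusted p = 0.0826), TIM10 (0.59, adjusted p = 0.052) and TIM12 (0.22, adjusted p = 0.222) were not called. TIM10 (0.57, adjusted p = 0.0654) and TIM13 (0.34, adjusted p = 0.11) were not called without the first parental array.

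At the inner membrane, 0 of the 3 TIM22 complex genes rose in either strain. TIM22 itself, the carrier channel (YDL217C), fell in the mutant: it had -0.59 and -0.33 on the mutant arrays, against -0.10 and -0.50 on the parental arrays, which overlap. Its mean was -0.46 ± 0.13 in the mutant (adjusted p = 0.0176), and -0.33 without the first mutant array (adjusted p = 0.205), against -0.30 ± 0.13 in the parental strain (adjusted p = 0.0682). Its partners TIM18 and TIM54 passed in neither strain. Of the 4 TIM23 complex genes 0 rose in the mutant, where 24.7% of all tested genes rose, and 2 in the parental strain, where 31.4% rose. TIM50, the receptor that takes presequences from the outer membrane (YPL063W), had 0.34 and 0.09 on the mutant arrays, against 0.45 and 0.84 on the parental arrays. It rose by 0.64 ± 0.15 in the parental strain (adjusted p = 0.00728), with 0.22 ± 0.15 in the mutant (adjusted p = 0.286), and was not called without the second parental array (0.45, adjusted p = 0.121). TIM23, the presequence channel (YNR017W), had 0.35 and -0.14 on the mutant arrays, against 0.60 and 0.23 on the parental arrays. Its parental rise of 0.41 ± 0.15 (adjusted p = 0.0433) had the highest adjusted p among the calls of both glycerol responses and kept its call in 9 of 20 alternatives. It was lost when any of 6 arrays was left out: without the first or second parental array it was 0.23 or 0.60 (adjusted p = 0.398 or 0.0521), without either array of the strains in glucose it was 0.41 (adjusted p = 0.0538), and without either array of the strains in glycerol 0.41 (adjusted p = 0.0527). TIM17, the partner of TIM23 in the channel, and TIM21, which links the complex to TOM and to the respiratory chain, passed in neither strain.

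In the import motor SSC1, the mitochondrial Hsp70 that pulls proteins into the matrix (YJR045C), had the highest mean ratio of the list in glycerol over glucose with loess scaling. In the parental strain TOM70 was the highest member with Agilent's ratios (1.07), median centring (0.66) and spike-in centring (-1.40). SSC1 had 1.17 and 0.72 on the mutant arrays, against 1.41 and 0.84 on the parental arrays, so the strains overlap. Its processed signal, which Agilent's software scaled and which was not used for the ratios, was 57600 and 55700 in glycerol against 25100 and 34000 in glucose on the mutant arrays, and 81200 and 53000 in glycerol against 37100 and 31100 in glucose on the parental arrays. SSC1 rose by 0.95 ± 0.17 in the mutant (adjusted p = 0.00284) and by 1.12 ± 0.17 in the parental strain (adjusted p = 0.000732). PAM17, a motor subunit that organizes the J-protein pair at the channel (YKR065C), had 0.33 and 0.76 on the mutant arrays, against 0.90 and 1.02 on the parental arrays, without overlap. Their difference, mutant minus parental, was -0.42 (adjusted p = 0.304), while the arrays that compare the strains put it at 0.08 (adjusted p = 0.874). PAM17 rose by 0.55 ± 0.15 in the mutant (adjusted p = 0.0187) and by 0.96 ± 0.15 in the parental strain (adjusted p = 0.000823), and was not called in the mutant without its second array (0.33, adjusted p = 0.255). PAM18, the J protein that stimulates Hsp70 at the channel (YLR008C), fell in the mutant, with -0.42 and -0.45 on the mutant arrays, against -0.29 and 0.11 on the parental arrays. Its mean was -0.44 ± 0.13 in the mutant (adjusted p = 0.0261) and -0.09 ± 0.13 in the parental strain (adjusted p = 0.56). Leaving out the first or second mutant array ended that call (-0.45 and -0.42, adjusted p = 0.118 and 0.155). Its partner PAM16 (YJL104W) was above background in 10 of 16 channels and was not tested, with -0.02 and 0.03 on the mutant arrays, against 0.17 and 0.06 on the parental arrays. TIM44, which anchors Hsp70 at the channel, and MGE1, its nucleotide exchange factor, passed in neither strain. Of the 5 tested motor members 2 rose and 1 fell in the mutant, where 24.7% of all tested genes rose and 21.9% fell. In the parental strain 2 rose and 0 fell, where 31.4% of all tested genes rose and 30.5% fell.

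Among the folding chaperones HSP60, the subunit of the matrix chaperonin (YLR259C), rose in both strains, with 0.66 and 0.67 on the mutant arrays, against 1.10 and 0.78 on the parental arrays. Both mutant arrays lay below both parental arrays. HSP60 rose by 0.67 ± 0.13 in the mutant (adjusted p = 0.00329) and by 0.94 ± 0.13 in the parental strain (adjusted p = 0.000342). Its lid HSP10 (YOR020C) had -0.21 and 0.48 on the mutant arrays, against 0.20 and 0.55 on the parental arrays, and passed in neither strain. MDJ1, the J protein with which Hsp70 folds newly imported proteins (YFL016C), had -0.19 and 0.12 on the mutant arrays, against 0.28 and 0.57 on the parental arrays. MDJ1 rose in the parental strain (0.43 ± 0.15, adjusted p = 0.0371) and stood at -0.03 ± 0.15 in the mutant (adjusted p = 0.87). Its call was lost without the first or second parental array (0.57 and 0.28, adjusted p = 0.0717 and 0.31) and without either array of the strains in glucose (0.43, adjusted p = 0.0568). HSP60 and SSC1 are bright spots, and with median centring in place of loess neither was called in the parental strain (0.28 and 0.47, adjusted p = 0.241 and 0.106), nor was HSP60 in the mutant (0.45, adjusted p = 0.0901).

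The 2 subunits of the processing peptidase were called in opposite directions in the mutant, and only MAS2 was called in the parental strain. MAS2, the substrate-binding alpha subunit (YHR024C), fell in both strains, with -0.63 and -0.71 on the mutant arrays, against -1.07 and -1.09 on the parental arrays. On the mutant arrays its processed signal was 2110 and 2100 in glycerol against 3970 and 3910 in glucose, and on the parental arrays 2090 and 1440 in glycerol against 5310 and 3840 in glucose. All 4 arrays show less MAS2 in glycerol, and the strains' ratios do not overlap. MAS2 fell by 0.67 ± 0.10 in the mutant (adjusted p = 0.000927) and by 1.08 ± 0.10 in the parental strain (adjusted p = 4.32e-05), the smallest adjusted p of the list, and MAS2 kept both calls in all 20 alternatives tried. MAS1, the catalytic beta subunit (YLR163C), had 0.33 and 0.36 on the mutant arrays, against -0.13 and 0.06 on the parental arrays. MAS1 rose by 0.35 ± 0.10 in the mutant (adjusted p = 0.0235), and stood at -0.03 ± 0.10 in the parental strain (adjusted p = 0.788). Without the first or second mutant array the rise of MAS1 was 0.36 and 0.33 and was not called (adjusted p = 0.124 and 0.171).

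**Figure D3:**
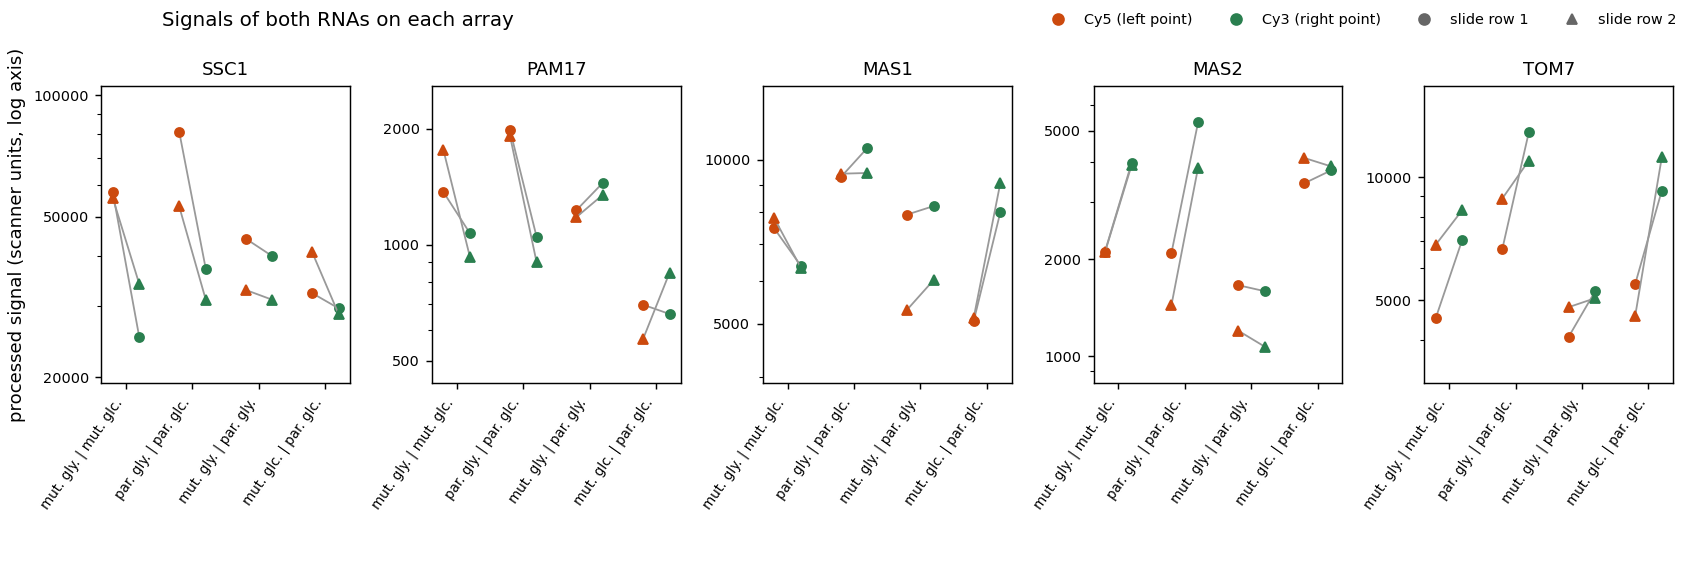
Processed signal of SSC1, PAM17, MAS1, MAS2 and TOM7 (log axis) in the Cy5 (left point) and Cy3 (right point) channel of each of the 8 arrays, joined by a line for each array (circles, slide row 1; triangles, slide row 2); mut. and par. stand for the mutant and the parental strain, gly. and glc. for glycerol and glucose. MAS2 is lower in glycerol on all 4 response arrays, and MAS1 and TOM7 are lower in the mutant on both arrays of the strains in glucose.

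The strains themselves differed at few of these genes, as at few of all tested genes. In glycerol 0 of 30 members were higher and 1 was lower in the mutant, where 3.24% of all tested genes were higher and 0.88% lower; at an unadjusted p under 0.05 there were 3 members, and 20.2% of all genes. In glucose 0 members were higher and 2 were lower in the mutant, where 3.5% of all genes were higher and 3.54% lower; at an unadjusted p under 0.05 there were 5, and 27.2% of all genes. The loop model, which fits all 4 conditions to the 8 arrays, and the separate-channel fit gave other counts, for all genes too. In either direction they called 732 and 1283 of all 5343 tested genes in glycerol, and 968 and 1311 in glucose. In glycerol both called 0 members higher, and the loop model called 2 lower (TOM5 and TOM22) and the separate-channel fit 6 (TOM5, TOM22, TIM9, TIM10, TIM12 and MDJ1). In glucose the loop model called 2 higher (TIM50 and TOM70) and the separate-channel fit 1 (TIM50), and both called MAS1 and TOM7 lower.

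In glycerol the member that differed was TOM22, with -0.61 and -0.39 on the arrays of mutant over parental RNA and a processed signal of 520 and 555 in the mutant against 855 and 794 in the parental strain. Its mean was -0.50 ± 0.11 (adjusted p = 0.0452), close to the threshold, and it kept its call in 8 of 20 alternatives. It was not called without the first or second of its own arrays (-0.39 and -0.61, adjusted p = 0.527 and 0.101), without either parental glycerol array (adjusted p = 0.0721), without either array of the strains in glucose (adjusted p = 0.0953), or with the slide row as a replicate block (adjusted p = 0.0525). In glucose TOM22 stood at -0.13 and -0.12. Across the list 23 of 30 members had a mean below 0 in glycerol and 18 were below 0 on both arrays, while 49% of all tested genes were below 0 and 30.2% on both arrays. The members' median was -0.16, against 0.01 over all genes. With median centring 22 of 30 were below 0, and with spike-in centring all 30.

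In glucose MAS1 was lower in the mutant, with -0.67 and -0.79 on the 2 arrays and a processed signal of 5060 and 5130 in the mutant against 8000 and 9050 in the parental strain. Its mean was -0.73 ± 0.10 (adjusted p = 0.00852). In glycerol MAS1 had -0.08 and -0.20, a mean of -0.14 ± 0.10 (adjusted p = 0.497), so the strain ratios in the 2 carbon sources did not overlap. TOM7, the small subunit known to act on the stability of the TOM complex (YNL070W), was also lower in the mutant in glucose, with -0.70 and -1.26 and a signal of 5480 and 4580 in the mutant against 9280 and 11200 in the parental strain. Its mean was -0.98 ± 0.20 (adjusted p = 0.0281), and in glycerol it had -0.35 and -0.07 (mean -0.21 ± 0.20, adjusted p = 0.594). The 4 comparisons form a loop, and for TOM7 it closed worst of all members: the other 6 arrays imply -0.37 for the ratio in glucose and -0.82 for that in glycerol. For MAS1 the other 6 arrays imply -0.52 in glucose and -0.35 in glycerol. Both calls in glucose need both of their arrays. Without the first MAS1 was -0.79 (adjusted p = 0.0754) and TOM7 -1.26 (adjusted p = 0.0835), and without the second MAS1 was -0.67 (adjusted p = 0.229) and TOM7 -0.70 (adjusted p = 0.439). MAS2, the partner of MAS1, did not pass in glycerol (0.11, adjusted p = 0.592) or in glucose (-0.02, adjusted p = 0.938).

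**Figure D4:**
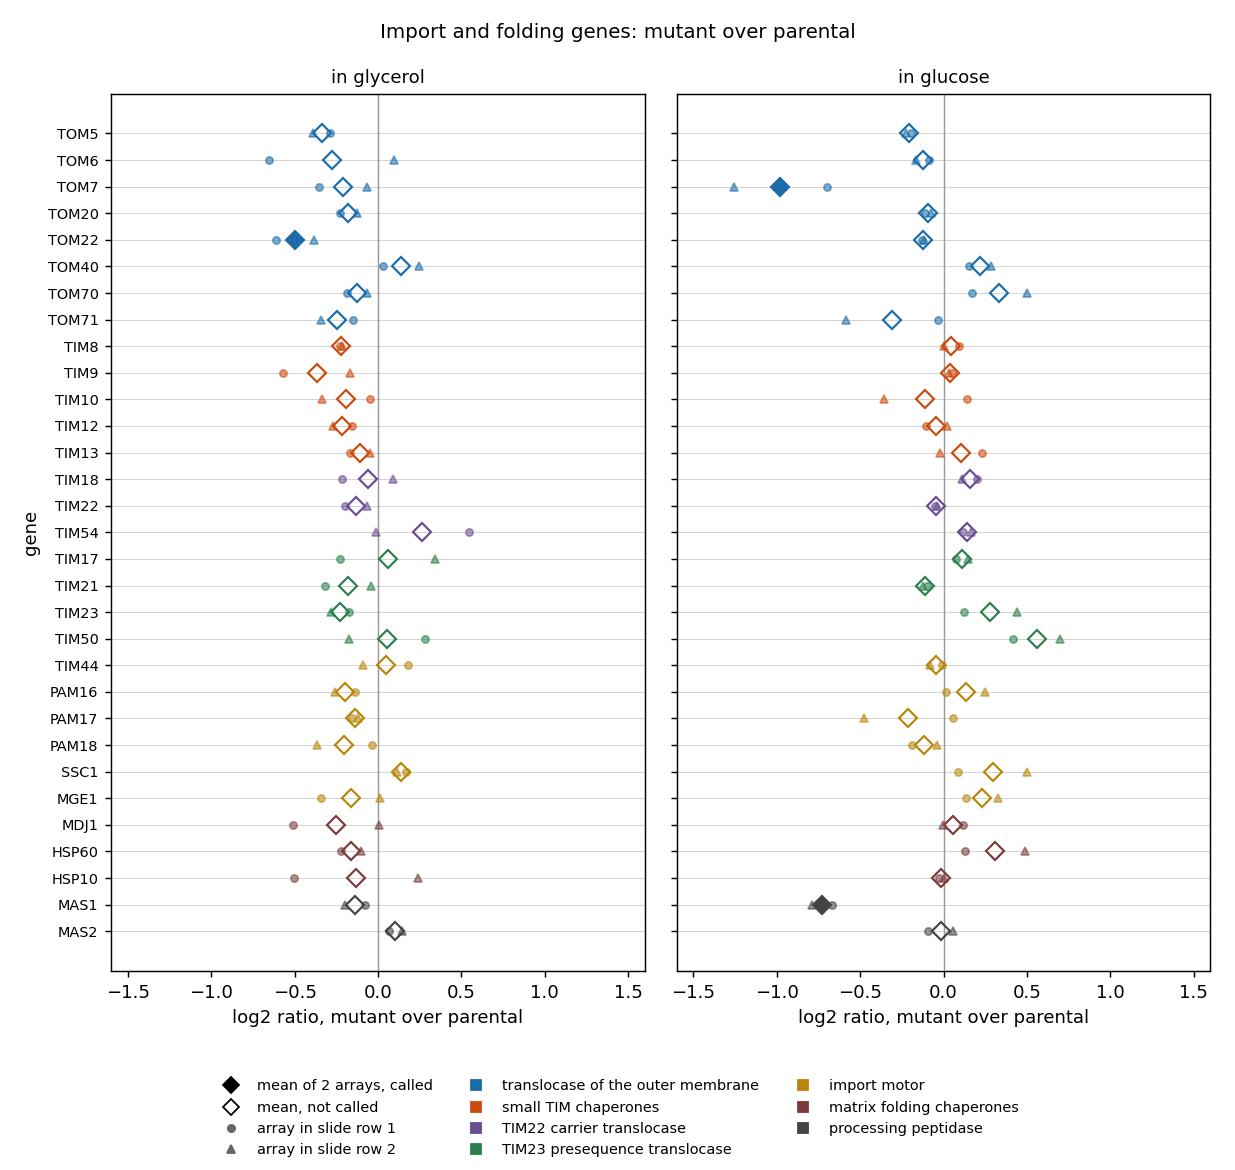
Log2 ratio of the mutant over the parental strain (x axis) for the 31 members (y axis) in glycerol (left panel) and glucose (right panel); small circles and triangles are the arrays in slide rows 1 and 2, diamonds their mean, filled where the gene passed the adjusted threshold (PAM16 was not tested). TOM22 in glycerol, and MAS1 and TOM7 in glucose, are the filled diamonds, all below 0 relative to the average gene.

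Whether the glycerol response itself differed between the strains was tested as the mutant response minus the parental response, in which a gene's constant dye bias cancels. No member passed: 0 of 30 were higher and 0 lower, where 0.861% of all tested genes were higher and 1.01% lower. At an unadjusted p under 0.05 there were 8 members, and 21.2% of all tested genes reached it. The loop model called 3 members (MAS1 higher, TIM9 and TOM70 lower), the separate-channel fit 6 and median centring 1. Of all 5343 tested genes these called 1030, 1217 and 258. The difference was below 0 for 21 of 30 members, and for 18 on both arrays, while 49.2% of all genes were below 0 and 30% on both arrays. The members' median difference was -0.24, against 0.01 over all genes. This sign depends on the scaling: with median centring 14 of 30 members were below 0 and 22 below the median of all genes, which was then 0.29, and with spike-in centring 1 was below 0 and 22 below a median of 0.97. Higher genes made up 46% of all calls in this difference with loess, 93% with median centring, 75% with Agilent's processed ratios and 100% with spike-in centring.

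The 5 small TIM genes were among those 8 members, with TOM70, MAS1 and MAS2. Their differences were -0.61 ± 0.22 for TIM8, -0.55 ± 0.19 for TIM10, -0.53 ± 0.21 for TIM9, -0.50 ± 0.15 for TIM12 and -0.41 ± 0.15 for TIM13, with adjusted p between 0.116 and 0.201. All 5 reached an unadjusted p under 0.05 and none passed after adjustment. The same difference can be had from the other 4 arrays, as the strain ratio in glycerol minus that in glucose, which uses none of the response arrays. By that route 23 of 30 members were below 0, a count not set against all genes, and 7 of 30 reached an unadjusted p under 0.05. The 5 small TIM values were among those below 0, from -0.08 for TIM10 to -0.41 for TIM9, and 0 of 5 reached an unadjusted p under 0.05. With median centring the 5 differences were -0.04 to -0.14, and with spike-in centring 0.55 to 0.64, in both cases below the median of all genes. TOM70 had a difference of -0.40 ± 0.17 (adjusted p = 0.232). The processing peptidase lay on the other side: MAS1 had a difference of 0.38 ± 0.14 (adjusted p = 0.18) and MAS2 of 0.40 ± 0.14 (adjusted p = 0.149), both above 0 on both arrays. By the other route MAS1 had 0.59 (adjusted p = 0.112) and MAS2 0.12 (adjusted p = 0.671). The loop model, which joins both routes, gave 0.49 for MAS1 (adjusted p = 0.0118) and 0.26 for MAS2 (adjusted p = 0.0899). For SSC1 the difference was -0.17 ± 0.24 (adjusted p = 0.725).

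**Figure D5:**
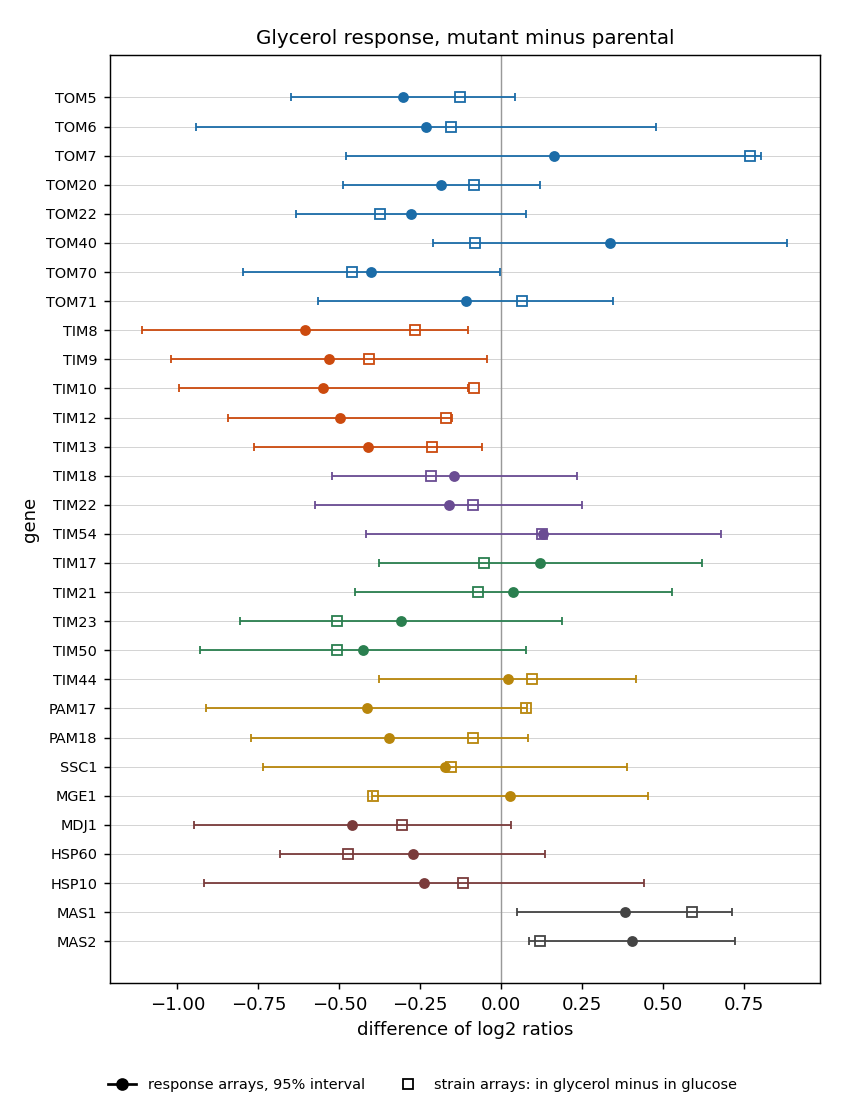
Difference between the mutant's and the parental strain's glycerol response in log2 (x axis) for the tested members (y axis); filled circles come from the 4 response arrays with the 95% interval before adjustment, open squares from the 4 strain arrays, and colours stand for roles. The 5 small TIM genes lie between -0.41 and -0.61 by the first route and between -0.08 and -0.41 by the second, relative to the average gene, and no member passed the adjusted threshold.

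Beyond the 31 members, 41 other genes of import, assembly, processing and quality control were listed, all of which were tested; their directions too are relative to the average gene. In the mutant 15 of 41 rose (36.6%) and 2 fell (4.88%) in glycerol, where 24.7% of all tested genes rose and 21.9% fell. In the parental strain 21 rose (51.2%) and 7 fell (17.1%), where 31.4% of all genes rose and 30.5% fell. With spike-in centring 14 of the 15 and all 21 rises were below 0, and POR1 in the mutant stayed above 0, at 0.28. The porin POR1, the main channel of the outer membrane for metabolites, rose the furthest, by 2.12 ± 0.18 in the mutant (adjusted p = 6.9e-05) and 2.17 ± 0.18 in the parental strain (adjusted p = 2.79e-05). In the disulfide relay that traps small TIM proteins in the intermembrane space, the receptor MIA40 rose by 1.05 ± 0.21 in the mutant (adjusted p = 0.00395) and 1.90 ± 0.21 in the parental strain (adjusted p = 0.00011). Its oxidase ERV1 fell, by 1.01 ± 0.11 in the mutant (adjusted p = 0.000184) and by 1.25 ± 0.11 in the parental strain (adjusted p = 3.07e-05). Of 7 genes of inner membrane and matrix quality control, 4 rose in the mutant and 6 in the parental strain, beside those 24.7% and 31.4% of all genes. They included the matrix protease PIM1 (0.76 in the mutant, 1.45 in the parental strain) and the prohibitins PHB1 (0.73 in the mutant, 1.39 in the parental strain) and PHB2 (0.86 in the mutant, 1.37 in the parental strain). The protease subunit YTA12 rose in the parental strain (1.02) and stood at 0.27 in the mutant (adjusted p = 0.0691). MIM1, an insertase of the outer membrane, rose by 0.68 in the mutant and by 1.22 in the parental strain. The strains differed at 1 gene in each direction in glucose and at 0 in glycerol, where 4 of the 41, and 20.2% of all genes, had an unadjusted p under 0.05. In glucose DJP1, a cytosolic J protein, was higher in the mutant (0.59 ± 0.12, adjusted p = 0.0288), and HOT13, which keeps the relay's receptor active, was lower (-1.12 ± 0.14, adjusted p = 0.00676). The responses differed at 0 of the 41, of which 10 had an unadjusted p under 0.05, as did 21.2% of all genes.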

How the data were processed

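Expression was measured on 8 two-colour Agilent arrays, 2 for each of 4 comparisons, grouped by their labels. Per the file headers, the scanner output was produced with Agilent Feature Extraction 10.10.1.1 and gives, for either dye, a spot's median intensity and that of the background around it. They also hold processed intensity (background-subtracted and dye-normalized) and its log10 ratio, Cy5 over Cy3, per the file headers. Per the file headers, further columns flag whether a spot is saturated, an outlier or well above background. A table deposited by the authors holds 1 normalized log2 value per gene and comparison, both arrays combined with limma per the submitters' processing notes; that its base is 2 was inferred from slopes of 0.681 to 0.8 against the scanner ratios in the 3 columns that share their sign. Genes were named through a RefSeq table, which matched 5756 of the 6256 identifiers.

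Median signals were background-corrected (normexp, offset 50), loess-normalized within arrays and averaged over the 2 spots of a gene, with control and outlier spots at weight 0. A gene was tested if both spots were well above background in all 4 channels of at least 1 of the 4 conditions, which 5343 genes met. limma 3.58.1 (R 4.3.3) was fitted to all 8 arrays with 1 coefficient per comparison, leaving 4 residual degrees of freedom, with Benjamini-Hochberg adjustment and a threshold of 0.05. Data were simulated with normal noise, 2 arrays for the parental comparison and 5343 genes. Log2 changes of 0.5, 1 and 2 were given to 67, 67 and 66 genes, and the others had none. Of these 32.8%, 97% and 100% were called, beside 4 false calls. In the measured parental comparison 3310 genes were called, which loosens the adjusted threshold, so these rates do not carry over to it. Alternatives were Agilent's ratios, no background subtraction, an offset of 16, median and spike-in centring, no filter, a filter on all 16 channels, either spot alone, the slide row as a replicate block, a loop model, a separate-channel fit, the other route around the loop for the difference of responses, and leaving out each array. Whether arrays in a slide row share RNA extracts is not stated, and if they do, the loop and separate-channel p-values are too small. The number of arrays limits the precision. The members and the list of 41 related genes were chosen with earlier results of these data known. All members are named; those called in a strain comparison, changed at least 2-fold in glycerol or set beside others of their complex are given in full, and related genes are named if called with at least a 2-fold change or in a strain comparison.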

Additional observations from a re-analysis of the deposited data

How the results depend on the processing

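Over 24 called values of single members and their alternatives, 390 of 478 values kept direction and call, 70 kept the direction but not the call (40 of them on leaving out 1 array and 11 with median centring) and 18 reversed. With spike-in centring the mutant's glycerol values became -0.77 for TOM40, -0.75 for PAM17, -0.64 for SSC1, -0.92 for HSP60 and -0.86 for MAS1. The parental values became -1.94 for TOM22, -1.40 for TOM70, -1.71 for TIM8, -1.85 for TIM10, -2.08 for TIM12, -1.88 for TIM13, -1.99 for TIM23, -1.76 for TIM50, -1.45 for PAM17, -1.59 for SSC1, -1.99 for MDJ1 and -1.78 for HSP60. With median centring TIM12 was -0.021 in the parental strain.

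Counts of members also moved, as did those of all tested genes. For the difference of responses 100 of all tested genes were called in the main fit and 258 with median centring. The loop model called 1030, the separate-channel fit 1217 and spike-in centring 2788. With spike-in centring 0 members were higher and 30 lower in either glycerol response, 23 were lower in the mutant in glycerol and 30 in glucose, and 10 differences of the responses were higher. For the parental glycerol response 2 members were higher and 5 lower with median centring, 4 were lower with Agilent's ratios, 3 with the loop model, 4 with the separate-channel fit and 2 with either spot alone. The separate-channel fit called 5 lower in the mutant's response. In glucose, 2 members were higher in the mutant with the loop model and 1 with the separate-channel fit. In glycerol, 0 were lower with Agilent's ratios, no background subtraction, median centring, the filter on all 16 channels or the first spot alone, 2 with the loop model and 6 with the separate-channel fit. For the difference of responses 1 member was higher with median centring, the loop model or the separate-channel fit, while 2 were lower with the loop model and 5 with the separate-channel fit. The cause of these shifts was not tested.

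Leaving out each array gave 2 to 5 higher and 1 to 3 lower members for the mutant's glycerol response, 6 to 14 higher and 1 to 2 lower for the parental one, 0 to 1 lower between strains in glycerol, 0 to 2 lower in glucose and 0 for the difference. The slide row, which numbers the replicate arrays in the file headers, is not stated to pair samples. With it as a replicate block, 13 members rose in the parental response, and 0 were lower for the strains in glycerol, against 12 and 1 without it, while the other 8 counts did not change. Dim members limit the depth: 4 tested members were below background on some channel.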
